A study of Mus musculus with 36 samples.

Results

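Introns of more than 50 kilobases (50000 bases) are described here as they appear in polyadenylated RNA of mouse blood progenitors, embryonic fibroblasts and cultured bone marrow cells. Members were chosen by genomic length alone. Of 219945 introns listed for every library, 4254 were longer than 50000 bases, in 2351 host genes by the GENCODE M21 annotation. An intron was kept in a set of libraries when its reads at both ends plus its spliced reads came to at least 50 in every library of that set. This kept 352 long introns in 229 genes among the progenitors, 785 in 516 genes among the fibroblasts and 264 in 189 genes among the cultured cells. In at least 1 of the sets 906 were kept, in all 36 libraries 156 were kept, and 536 had no read in any library. The minimum counts spliced reads too, so it selects introns of expressed genes, and the introns that passed are not a sample of all long introns.

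The study compared Zrsr2 knockout (KO) with wild-type (WT) male mice of the C57BL/6 strain. Megakaryocyte-erythroid (MEP), granulocyte-monocyte (GMP) and common myeloid progenitors (CMP) were sorted from the bone marrow of 3 WT and 3 KO littermates, so that each mouse gave 1 library of each type. Mouse embryonic fibroblasts (MEF) were grown from 3 WT and 3 KO male embryos. Lin-Kit+ bone marrow cells, which lack markers of mature lineages and carry the stem cell factor receptor Kit, were taken from WT or KO mice, cultured ex vivo and transduced with a control hairpin or with sh1 or sh10 against Zrsr1, the paralogue of Zrsr2. These 6 Lin-Kit+ groups had 2 libraries each, from experiment 1 and experiment 2. Nothing in the labels says that the experiments used separate mice, so p-values there measure the spread between these libraries only. All libraries were made from polyadenylated RNA.

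An intron is removed by the spliceosome after the 5′ splice site, a branch point and the 3′ splice site have been recognised. In a long intron these sites are made many minutes apart, since the polymerase must first transcribe the whole intron, and long introns often hold alternative first exons, alternative last exons and other genes. Zrsr2 recognises the 3′ splice site of the rare U12-type introns as part of the minor spliceosome. Mutations of its human counterpart occur in myelodysplastic syndromes.

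The counts behind every value are reads across the 5′ exon-intron boundary, reads across the 3′ boundary and reads spliced over the intron, with ends oriented by the strand of the host gene. Retention is the authors' percent value, 100 times the reads at both boundaries divided by those reads plus 2 times the spliced reads. The covered share is the fraction of the intron's bases with a read, printed as a percent. Spliced reads came to 44083233 to 84832431 in the 18 progenitor libraries, 43514139 to 61124920 in the 6 MEF libraries and 30481450 to 43345548 in the 12 Lin-Kit+ libraries. Zrsr2 itself stood, in CPM of spliced reads (spliced reads scaled to the library's total of them), at no more than 0.08 in KO progenitors against 23.8 to 34.2 in WT, and at no more than 0.46 in KO MEF against 23.7 to 28.7 in WT. In Lin-Kit+ cells it stood at 0.0887 to 1.52 in KO libraries, above the other KO groups in 1 library each with the control hairpin and with sh10, against 19.2 to 25.9 in WT. The summed level of 8 GMP markers was 26600 to 31900 CPM in WT GMP and 37.5 to 58.7 in WT MEP, and that of 8 fibroblast markers was 66700 to 78600 in WT MEF. No pair of libraries of 1 group had identical spliced counts.

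The boundary reads of these introns came mostly from a single end, and the sequence around some ends shows where another annotated exon reaches across them. The Skap2 and Msi2 windows are shown because spliced reads (Skap2) or the covered share (Msi2) of these introns differed between cell types. The following 30-base windows, from GENCODE M21 transcripts with mm10 coordinates, hold 15 bases on each side of a boundary. Capitals mark the first bases of the intron (GT) at a 5′ boundary or its last bases (AG) at a 3′ boundary. Each was readable because another annotated transcript runs across that boundary unspliced.
Mrtfa intron, 3′ boundary (intron chr15:81045355-81104772, minus strand): cttgccaccatgcAGtgctgcagttgaagc
St3gal4 intron, 3′ boundary (chr9:35055650-35116697, minus strand): actcctgcctcctAGgtggcccgaggcagc
Bcl11a intron, 5′ boundary (chr11:24085651-24158252, plus strand): aggaacacatagcagGTaaatgagaagcga
Tcf12 intron, 5′ boundary (chr9:72015712-72109675, minus strand): agttcagcgggtcagGTaagacgatgttga
Cpq intron, 5′ boundary (chr15:33302548-33381335, plus strand): atgtatccagaggaaGTgagtaaagtagaa
Babam2 intron, 5′ boundary (chr5:31731044-31785577, plus strand): gggagacgttaaaatGTgagtaggtggtga
Msi2 intron, 5′ boundary (chr11:88413991-88480005, minus strand): ccaacaggcacagagGTaagatggcccgtc
Skap2 intron, 5′ boundary (chr6:51922341-51996016, minus strand): atggcccctctgatgGTatgtgacatcctc

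Spliced reads were counted over joined exons. The next windows show, for introns whose boundary or spliced reads the results turn on, 15 exon bases on each side of the join, and capitals mark the bases that meet there.
Mrtfa, shorter form (chr15:81045355-81104772, minus strand): tggctgtgcagtcaGTgctgcagttgaagc
Mrtfa, longer form (chr15:81045355-81117390, minus strand): gtgagcggaagaatGTgctgcagttgaagc
Adk (chr14:21169879-21234832, plus strand): atgaaagtggctcaGTggttgattcaggag
Spop (chr11:95414405-95470521, plus strand): cgccgccgttctcaGGgtgaagaaaaacca
Suclg2 (chr6:95497718-95566383, minus strand): acgtctgaccccaaGGtggaagccattctc
Filip1l (chr16:57513445-57569649, plus strand): gcaggaatgtgagaGAttaaagaaactaat
Foxo3 (chr10:42197902-42274815, minus strand): tctgcgggctggaaGAactccatccggcac
Copg2 (chr6:30750636-30809558, minus strand): aagatcctacagcaGTtgcaggcaccttta
Ube2g1 (chr11:72607636-72663070, plus strand): gaagacagctggcaGAactcaacaaaaatc
Immp2l (chr12:41110944-41628763, plus strand): cattgtgtcattggTGtctcctaaaaaccc

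Among the 352 long introns kept in progenitors, 60 had a 5′ boundary that such a transcript made readable. Of these, 59 (98.3%) began with GT and 1 with GC. None held ATATCCTT or GTATCCTT, read on the strand of the host gene, in its first 8 bases, which is the form of U12-type 5′ sites, against 81 of 12429 (0.652%) of the other introns kept. In MEF it was 0 of 141 against 98 of 13764 (0.712%). All 14 readable 3′ boundaries in progenitors ended with AG. The other long introns were not read, and introns crossed by an annotated exon may differ from the rest.

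The question of how long introns differ from shorter ones was answered by length class in the progenitors. The 352 had a median length of 68225 bases and a longest of 517820. Of them 283 lay between coding exons, 65 in the 5′ UTR, 1 in the 3′ UTR and 3 in noncoding transcripts, and 108 (30.7%) were the first intron of their transcript. An exon of another annotated transcript lay over the 5′ boundary of 64 (18.2%) and over the 3′ boundary of 18 (5.11%). At the 5′ boundary 62 of these exons belonged to the host gene itself and 51 were last exons of a shorter transcript of it. At the 3′ boundary all 18 belonged to the host gene and 13 were first exons. Long introns also held other annotated features, with exons of the host gene inside 180 of them and other genes inside 184. Of the 352, 122 shared an end with another long intron, so their boundary reads were counted more than once.

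Median retention of the long introns was 0.46% (quartiles 0.104% and 1.56%), against 0.381% for introns of 20 to 50 kilobases and 2.06% for introns of up to 1 kilobase. Retention above 5% was found in 14 (3.98%) of the long introns and in 24.3% of those up to 1 kilobase. The median long intron had 225 spliced reads per library and 2.03 boundary reads, and 10 had no boundary read in any of the 18 libraries. The median covered share was 2.78%, which was 2105 bases, against 81.5% or 156 bases in introns of up to 1 kilobase. A larger share of a long intron was therefore without reads although more of its bases were covered.

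The 50-kilobase limit fell within a continuous range. Just inside it lay introns of Foxn3 (50120 bases, retention 0.129%), St3gal3 (50280 bases, 3.33%) and Med26 (50297 bases, 2.03%). Just outside lay introns of Xxylt1 (49979 bases, 1.25%), Rnf144a (49942 bases, 2.82%) and Mad1l1 (49853 bases, 0.0452%).

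Where boundary reads were numerous enough to compare the ends, they were one-sided. A mean of 10 or more boundary reads was required, which reads at 1 end alone could reach. The part of this minimum in the shares below was not tested. In progenitors 63.1% of introns of up to 1 kilobase reached it, against 71 of the 352 long introns (20.2%). In 38 the 3′ boundary had more than 8-fold the reads of the 5′ boundary, and in 13 the 5′ boundary had more than 8-fold those of the 3′, together 51 (71.8%). The share was 66.5% for introns of 20 to 50 kilobases, 37.1% for 5 to 20, 17.4% for 1 to 5 and 10.9% for up to 1 kilobase. Only 8 of the 71 (11.3%) had ends within 2-fold of each other, against 64.5% of the shortest class. These values are descriptions over introns that share libraries and, in part, ends.

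**Figure D1:**
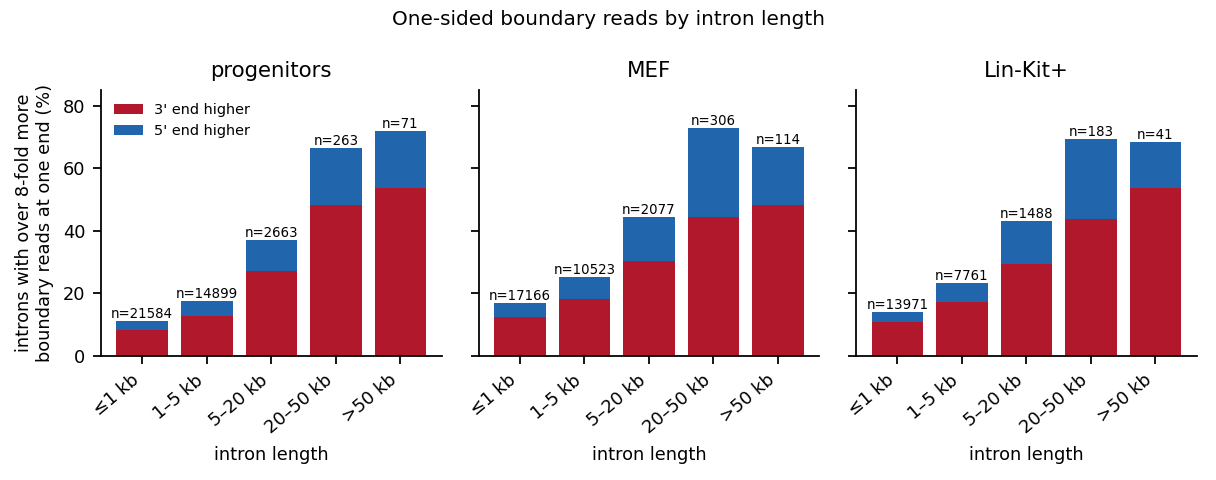
Percent of introns whose 5′ and 3′ boundary reads differed by more than 8-fold, by intron length class, among introns with a mean of 10 or more boundary reads. Panels are progenitors (18 libraries), MEF (6) and Lin-Kit+ cells (12), and numbers above bars are introns. In progenitors the bars go from 10.9% for introns of up to 1 kilobase to 71.8% for those of more than 50. Among the MEF introns of more than 50 kilobases, those of protocadherin gamma genes share a 3′ boundary.

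In the other sets long introns were also more often one-sided than the shortest class, but not more often than the next shorter class. In MEF 76 of 114 long introns (66.7%) were one-sided, 55 towards the 3′ and 21 towards the 5′ boundary. The share was 72.9% in the next shorter class and 16.8% in introns of up to 1 kilobase. Introns of protocadherin gamma genes among the 114 end at the same 3′ boundary (chr18:37825020), so that boundary entered the MEF counts many times. Their part in the 66.7% was not separated. In Lin-Kit+ cells 28 of 41 long introns (68.3%) were one-sided, 22 towards the 3′ and 6 towards the 5′ boundary. The same shorter classes had 69.4% and 14.1%. After introns with an annotated exon over either boundary were set aside, 35 of 51 (68.6%) remained one-sided in progenitors and 46 of 78 in MEF.

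Annotated exons at the ends were counted for each direction, taking exons over a boundary and exons up to 200 bases inside it together. In MEF such an exon was found at the 3′ boundary of 20 (36.4%) of the 55 introns with high 3′ reads, of 0 of the 21 with high 5′ reads and of 56 (7.13%) of all 785. Of the 20, 19 lay over the boundary, and of the 56, 49 did. Of those 49, 30 had an exon of the host gene itself there. Introns of protocadherin gamma genes share the 3′ boundary at chr18:37825020, so 1 boundary and any exon over it entered these MEF counts many times. Their part in the 36.4%, and in its contrast with 0 of the 21, was not separated. The MEF shares at the 3′ boundary are thus not shares of separate boundaries. In progenitors and Lin-Kit+ cells all exons over a 3′ boundary, in 18 and 12 introns, belonged to the host gene. At the 5′ boundary such an exon was found in 8 (38.1%) of the 21, in 11 (20%) of the 55 and in 165 (21%) of the 785. Of the 165, 144 lay over the boundary. In progenitors the shares at the 3′ boundary were 6 of 38 (15.8%) for introns with high 3′ reads, 1 of 13 for high 5′ reads and 24 of 352 (6.82%) for all. At the 5′ boundary the introns with high 5′ reads, 4 of 13 (30.8%), and those with high 3′ reads, 11 of 38 (28.9%), had like shares. In Lin-Kit+ cells the order was the opposite of that in MEF, with a 3′ exon in 3 of 6 introns with high 5′ reads and 4 of 22 (18.2%) with high 3′ reads, and a 5′ exon in 1 of the 6 and 9 (40.9%) of the 22. The part of annotated or unannotated exons in the one-sidedness was not tested beyond these counts.

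**Figure D2:**
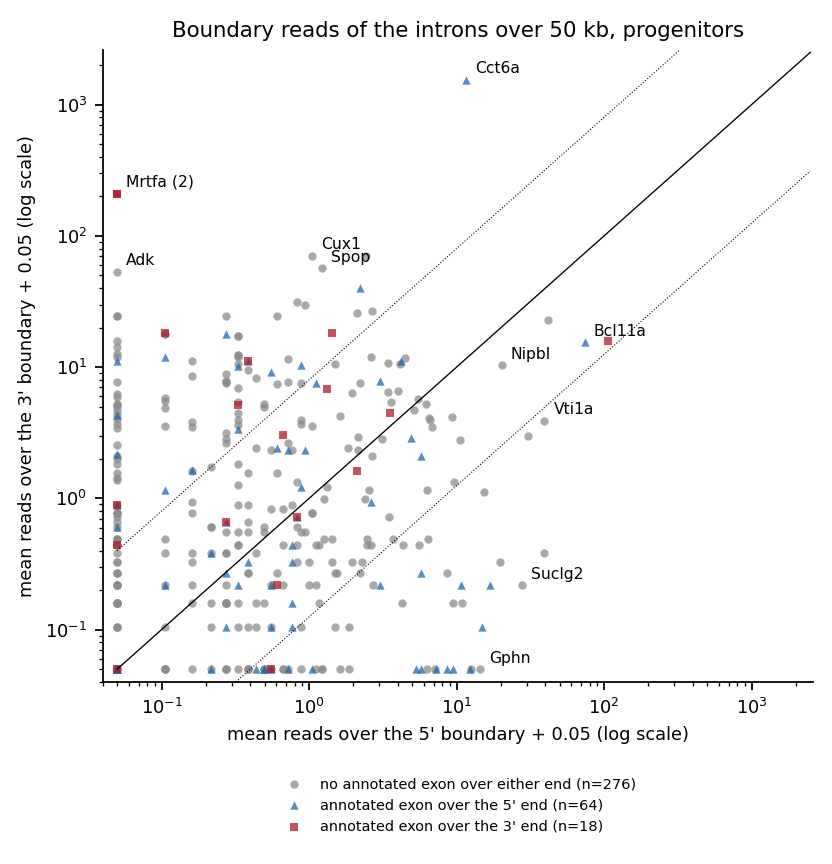
Mean reads per library at the 5′ boundary (x axis) and the 3′ boundary (y axis) of the 352 long introns in 18 progenitor libraries, both on log axes with 0.05 added. Marker shapes separate the 276 introns with no annotated exon over an end from those with an exon over the 5′ or the 3′ boundary. The latter number 64 and 18, and introns with an exon over both ends are in both counts. Introns with many reads at both ends are few.

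The end with more reads was mostly the same in different cell types. Of 26 long introns in 21 genes that had 10 or more boundary reads in both progenitors and MEF, 25 (96.2%) had more reads at the same end in both, against 85.8% of the other introns. The exception was Ube2g1. Between progenitors and Lin-Kit+ cells the end was the same in 24 of 24, in 17 genes, against 83.9% of the others. Pearson correlations of the log2 ratio of 5′ to 3′ reads were closer, at 0.951 against 0.929 for MEF and 0.961 against 0.917 for Lin-Kit+ cells. Shorter introns more often had nearly equal ends, within 2-fold in 64.5% of those up to 1 kilobase in progenitors. In such introns the higher end can change with few reads, and the part of this in their lower agreement was not tested. The points share intron sequence and annotation, and several share an end, so no test was made.

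Several introns with reads mainly at the 3′ boundary had many spliced reads as well. Adk encodes adenosine kinase, and its intron of 64954 bases is intron 4 of 10. It had 0 reads at the 5′ boundary in all 18 progenitor libraries and 16, 49 and 100 reads (lowest, median, highest) at the 3′ boundary, with 500 to 1601 spliced reads. Retention was 1.26%, 2.35% and 4.24%, and all 18 libraries had more reads at the 3′ boundary. No annotated exon lies inside this intron. In the 6 MEF libraries the 3′ boundary had 16 to 34 reads and the 5′ boundary 0.

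Spop, the substrate adaptor of a cullin ubiquitin ligase, had the same pattern in its intron of 56117 bases. Its 5′ boundary had 0 to 6 reads and its 3′ boundary 25, 53 and 103, with 456 to 1025 spliced reads and a retention of 2.55%, 3.87% and 5.99%. In MEF its 3′ boundary had 19 to 35 reads. Cux1, a homeodomain transcription factor, had 0 to 4 reads at the 5′ and 45, 66.5 and 104 at the 3′ boundary of its first intron (chr5:136485852-136567177, minus strand), a mean log2 ratio of 5′ to 3′ reads of -5.56. Its retention was 2.35%, 3.48% and 5.45%.

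Other introns with high 3′ reads had lower totals. Commd1, a regulator of copper handling and NF-kappaB, had 13, 29 and 59 reads at the 3′ boundary. Snd1, a nuclease-domain protein that binds RNA, had 8, 19 and 61 at the 3′ boundary of its intron at chr6:28545599-28626099 beside 1074 to 3430 spliced reads. Tmem164 had 7, 19 and 42 and a retention of 3.39%, 7.24% and 16.9%, and there an internal exon of another transcript lies over the 3′ boundary. Retention of the Commd1 intron was 1.12% to 2.46% in WT CMP and 1.11% to 1.4% in KO CMP, which overlap.

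A smaller number had reads at the 5′ boundary. Suclg2 encodes a subunit of succinyl-CoA ligase, and its intron of 68666 bases had 12, 25.5 and 49 reads at the 5′ boundary and at most 2 at the 3′ boundary. Retention was 1.22%, 1.75% and 3.26%. In MEF the 5′ boundary had 3 to 11 reads and the 3′ boundary 0. No annotated exon lies inside it.

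Vti1a, a SNARE protein of vesicle fusion, had 16, 38.5 and 65 reads at the 5′ boundary of its intron of 77169 bases (chr19:55499305-55576473, plus strand) and 0 to 4 at the 3′, with a retention of 4.9%, 7.7% and 11.4%. Gphn, the scaffold protein gephyrin that also makes molybdenum cofactor, had 5, 12 and 40 reads at the 5′ boundary of its first intron and 0 at the 3′ boundary in all 18 libraries. Its retention ranged from 2.21% to 28.2% with a median of 5.89%. In these introns, as in Suclg2, no library had its higher count at the 3′ boundary.

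For several introns with high 5′ reads the annotation places a last exon over that boundary. Babam2, a member of the BRCA1-A complex, had 4, 16.5 and 29 reads at the 5′ boundary and 0 to 2 at the 3′. Cpq, a secreted carboxypeptidase, had 0, 10 and 26 at the 5′ boundary and 0 at the 3′. Tcf12, a helix-loop-helix transcription factor, had 1, 8.5 and 25 at the 5′ boundary. In Babam2 and Cpq the boundary printed above lies inside the last exon of a shorter transcript, and in Tcf12 it lies inside a transcript of a single exon.

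The 2 introns with the highest mean retention in progenitors were those of Cct6a and Gm1976. Cct6a encodes a chaperonin subunit, and its intron of 50470 bases had 805, 1382 and 2247 reads at the 3′ boundary, 0 to 34 at the 5′ and 0 to 11 spliced. Its retention was 98.6%, 99.7% and 100% over the 18 libraries. An exon of another Cct6a transcript ends 33 bases before that 3′ boundary. Gm1976, a predicted gene, had 56, 103.5 and 199 reads at the 5′ boundary and a retention of 70.9%, 89.3% and 100%. The first exon of another Gm1976 transcript lies over its 3′ boundary, and no annotated exon lies over its 5′ boundary. Reads of such exons and of unspliced RNA cannot be told apart in boundary counts.

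The longest introns were spliced with few boundary reads. Immp2l encodes a mitochondrial inner membrane peptidase, and its intron of 517820 bases, the longest kept in progenitors, had 55, 97 and 140 spliced reads, 0 to 2 reads at the 5′ and 0 at the 3′ boundary. Its retention was at most 1.41%. Rad51b, a homologous recombination protein, had an intron of 330419 bases with 60, 101 and 170 spliced reads and a retention of at most 1.01%.

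Not all of the longest had retention near 0. Smyd3, a lysine methyltransferase, had retention of 0% to 3.78% in an intron of 310880 bases. Bcas3 reached 1.79%, 3.52% and 7.3% in an intron of 217790 bases, and Btbd9 0.926% to 7.61% in an intron of 179223 bases. For comparison, Dock2, a Rac activator of blood cells, had at most 0.52% in an intron of 172971 bases. Among these introns length and retention thus did not go together in a single order.

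By spliced reads 3 introns of Snd1 came first, with means of 1650, 1540 and 1530 spliced reads per library. Cfdp1, a chromatin protein, and Chchd3, which shapes mitochondrial cristae, each had a mean of 1450. Mbnl1, a regulator of alternative splicing, had 1250, Gng12, a G-protein subunit, 1170, and Rsu1, an adhesion protein, 1150. At the other end, introns of Fyn (chr10:39455136-39511738), Dock2 (chr11:34363918-34438274) and Msi2 (chr11:88413991-88480005) had 0 boundary reads in all 18 progenitor libraries beside medians of 130.5, 452 and 282.5 spliced reads.

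Between progenitor types the retention test called introns of a single gene, Mrtfa, which encodes an actin-regulated coactivator of serum response factor. The intron of 59418 bases is the first of 12 and a longer form of 72036 bases shares its 3′ boundary. In WT CMP the 3′ boundary had 359, 359 and 382 reads beside 74, 88 and 77 spliced reads, and retention was 70.8%, 67.1% and 71.3%. In WT GMP it had 201, 273 and 280 reads, and retention was 65%, 68.8% and 76.9%. In WT MEP it had 27, 7 and 14 reads beside 76, 46 and 66 spliced, and retention was 15.1%, 7.07% and 9.59%. All MEP values were below all CMP and GMP values, and the 5′ boundary had 0 reads in all 18 libraries.

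The tests gave the same order. The log2 ratio of boundary to spliced reads of the shorter form was 4.30 ± 0.37 (SE, n = 3 and 3) lower in MEP than in CMP, a difference of -4.30 with an adjusted p of 5.35e-06 in edgeR. Against GMP the difference was -4.35 ± 0.37 with an adjusted p of 2.77e-06. The covered share moved with it, from 12.8%, 10.2% and 6.96% in CMP to 0.702%, 1.28% and 0.959% in MEP.

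KO libraries had the pattern of WT. Mean retention of the shorter form was 70.7% ± 8.15 (SD, n = 3) in KO CMP, 64.9% ± 8.51 in KO GMP and 13.7% ± 2.79 in KO MEP, against 69.7% ± 2.28, 70.2% ± 6.07 and 10.6% ± 4.1 in WT. In the 12 Lin-Kit+ libraries the 3′ boundary had 96 to 311 reads and retention was 52.5% to 77.4%. In WT MEF it had 0, 5 and 12 reads beside 155, 203 and 176 spliced, and retention was 0%, 1.46% and 3.3%. The annotation places the first exon of a 10-exon Mrtfa transcript over this boundary (chr15:81045289-81045546), which the printed 3′ window crosses, and reads of that transcript and of a retained intron count alike.

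**Figure D3:**
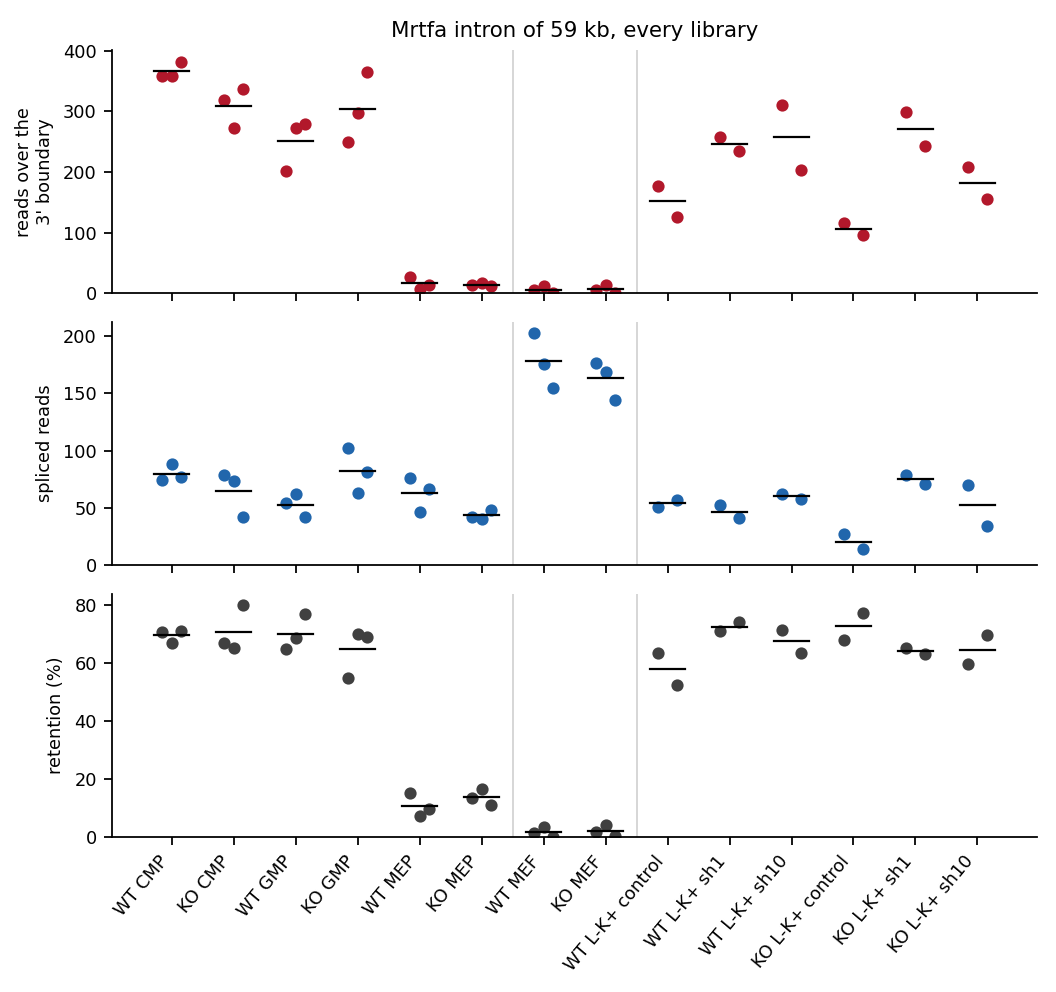
Reads at the 3′ boundary, spliced reads and retention (percent) of the 59418-base Mrtfa intron in each of 36 libraries, by group, with points for libraries and bars for group means. Retention lies between 52.5% and 80% in CMP, GMP and Lin-Kit+ libraries, between 7.07% and 16.7% in MEP and at 3.98% or below in MEF.

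These calls were few. In MEP against CMP 2 of 352 (0.568%) were called, both Mrtfa forms and both lower, against 0.163% of all 75021 introns tested in either direction and 0.116% lower. In MEP against GMP the same 2 were called, against a background of 0.149%, with 0.092% lower. In GMP against CMP the edgeR test called 0 of 352, against a background of 0.0253%, with 12 (3.41%) at an unadjusted p under 0.05 and 3.37% of all introns. The share at an unadjusted p under 0.05 was near that of all introns. The balance of the ends, tested by edgeR in 71 long introns, was called in 0 for each pair of progenitor types, against 0.00253% of all introns in MEP against GMP and 0 in the other pairs, with 1 of the 71 at an unadjusted p under 0.05 in GMP against CMP and 0 in the others. In 51 of the 71 the ends differed by more than 8-fold, and an end with few or 0 reads left this test little to compare. The shorter Mrtfa form had 0 reads at the 5′ boundary throughout. Its log2 ratio of 5′ to 3′ reads was 4.67 ± 0.46 (SE) higher in MEP than in CMP and was not called. Counts of 0 here thus do not show ends in like balance. These comparisons share libraries and are not independent of each other.

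Spliced reads, which follow the use of the host transcript, did differ between progenitor types. In MEP against CMP 161 of 352 (45.7%) were called by edgeR, 40 higher and 121 lower, in 106 genes, against 45.5% of all introns (22% higher and 23.5% lower). The share in either direction was that of the background, while the median change of the members was -0.21 on the log2 scale against -0.02 for all introns. In MEP against GMP 164 (46.6%) were called, 57 higher and 107 lower, against 43.8% (21.4% higher and 22.5% lower). In GMP against CMP 84 (23.9%) were called, 38 higher and 46 lower, in 54 genes, against 19.1% (9.72% higher and 9.38% lower), and without WT mouse 1 or 2 the count was 49. In these bulk samples fewer cells of a type and less RNA per cell cannot be told apart.

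Long introns of Skap2, Etv6 and Celf2 were among those with fewer spliced reads in MEP. Skap2, an adaptor of Src-family kinases, had 1306, 1190 and 979 spliced reads in WT CMP, 814, 887 and 875 in GMP and 204, 213 and 196 in MEP. The MEP libraries lay below all others, and the change against CMP was -2.46 ± 0.12 (log2, SE) with an adjusted p of 7.17e-14 in edgeR. Etv6, an ETS-family repressor needed for blood stem cells, had 1399, 1133 and 1029 in CMP and 218, 230 and 161 in MEP at its intron chr6:134137418-134222864, a change of -2.51 ± 0.14. Celf2, an RNA-binding splicing regulator, had 1224, 1043 and 987 in CMP and 144, 81 and 63 in MEP, a change of -3.46 ± 0.20. In KO MEP Skap2 had 170, 212 and 222 spliced reads, also below all CMP and GMP libraries of either genotype.

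Fewer long introns had more spliced reads in MEP. Lyrm4, needed for iron-sulphur cluster assembly, had 940, 959 and 897 spliced reads in WT MEP, 414, 417 and 322 in CMP and 207, 196 and 197 in GMP. All MEP values were above all others, and the change against CMP was 1.31 ± 0.16 with an adjusted p of 2.03e-07 in edgeR. Ammecr1 had 472, 390 and 509 in MEP against 187, 96 and 165 in CMP, a change of 1.65 ± 0.19. Bcl11a, a zinc-finger repressor of fetal globin genes, had 1103, 1210 and 1004 in MEP, 851, 693 and 976 in CMP and 201, 229 and 227 in GMP. Its change in MEP against GMP was 1.93 ± 0.15 with an adjusted p of 1.04e-10.

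GMP stood out in Arsb, the lysosomal enzyme arylsulfatase B. Its intron chr13:93807704-93862086 had 1047, 1385 and 1056 spliced reads in WT GMP, 301, 220 and 210 in CMP and 267, 194 and 189 in MEP. The change in GMP against CMP was 2.70 ± 0.17 with an adjusted p of 9.1e-12 in edgeR for this intron, and 2.79 ± 0.18 for a second Arsb intron (chr13:93880559-93939226). Lower in GMP was Fyn, a Src-family kinase, with 78, 69 and 102 spliced reads against 598, 474 and 326 in CMP, a change of -2.03 ± 0.24. Rnf220, a ubiquitin ligase, had 141, 182 and 189 against 746, 683 and 678, a change of -1.60 ± 0.18.

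The covered share of the intron body was tested separately with limma. In MEP against GMP 16 of 352 (4.55%) were called, 4 higher and 12 lower, in 11 genes, against 1.14% of all introns (0.4% higher and 0.74% lower). With the mouse as a block 5 were called, leaving out WT mouse 2 or 3 left 3, WT mouse 1 left 6, KO mouse 2 left 7 and KO mouse 3 left 10. The second Arsb intron was covered over 25.9%, 20.6% and 18.1% in GMP and 3.84%, 4.29% and 3.82% in MEP, and stayed called in all 9 alternatives. Ppp3ca, the catalytic subunit of calcineurin, was covered over 6%, 6.89% and 6.04% in GMP and 0.82%, 0.751% and 0.371% in MEP in a first intron of 126824 bases, and lost its call without WT mouse 2 or 3. In both genes the GMP values lay above all others.

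In 3 of the called introns the spliced reads of the junction did not move with the covered share. 3110082I17Rik was covered over 46%, 46.6% and 45.7% in GMP and 18.1%, 20.4% and 19.5% in MEP, while its spliced reads had a log2 change of -0.08 ± 0.18 (SE) and an adjusted p of 0.746 in edgeR. Msi2, an RNA-binding protein of stem cells, was covered over 3.65%, 1.35% and 2.22% of its intron at chr11:88413991-88480005 in GMP and 7.76%, 11.3% and 8% in MEP, beside a change in spliced reads of 0.17 ± 0.19 and an adjusted p of 0.499 in edgeR. Pcca, a subunit of propionyl-CoA carboxylase, was covered over 0.485%, 0.771% and 0.93% in GMP and 3.11%, 2.62% and 2.9% in MEP, beside a change in spliced reads of -0.43 ± 0.17. In Pcca the covered share was thus higher and the spliced count lower in MEP. The first lost its call for the covered share with the mouse block and without each WT mouse, Msi2 without WT mouse 2 or 3, and Pcca with the block, with untransformed fractions, without each WT mouse and without KO mouse 1. These 3 were singled out after their values were seen.

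Fewer introns were called in the other pairs of progenitor types. In MEP against CMP 3 of 352 were called lower, both Mrtfa forms and Ripor2, an inhibitor of RhoA, against a background of 0.431% in either direction and 0.247% lower. The covered share of the Ripor2 intron was 18.3%, 14.3% and 9.79% in CMP and 2.17%, 3.03% and 2.58% in MEP, which do not overlap. Its call held in 3 of 9 alternatives and was lost in 6. In GMP against CMP 2 were called higher, Arsb and Ppp3ca, against 0.064% in either direction and 0.044% higher. With the mouse as a block limma called 0 of 352 in both comparisons, and without WT mouse 2 it also called 0 in both. In GMP against CMP it called 0 without WT mouse 1, WT mouse 3 or KO mouse 2 too and 1 without KO mouse 3, and in MEP against CMP it called 1 without WT mouse 1.

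**Figure D4:**
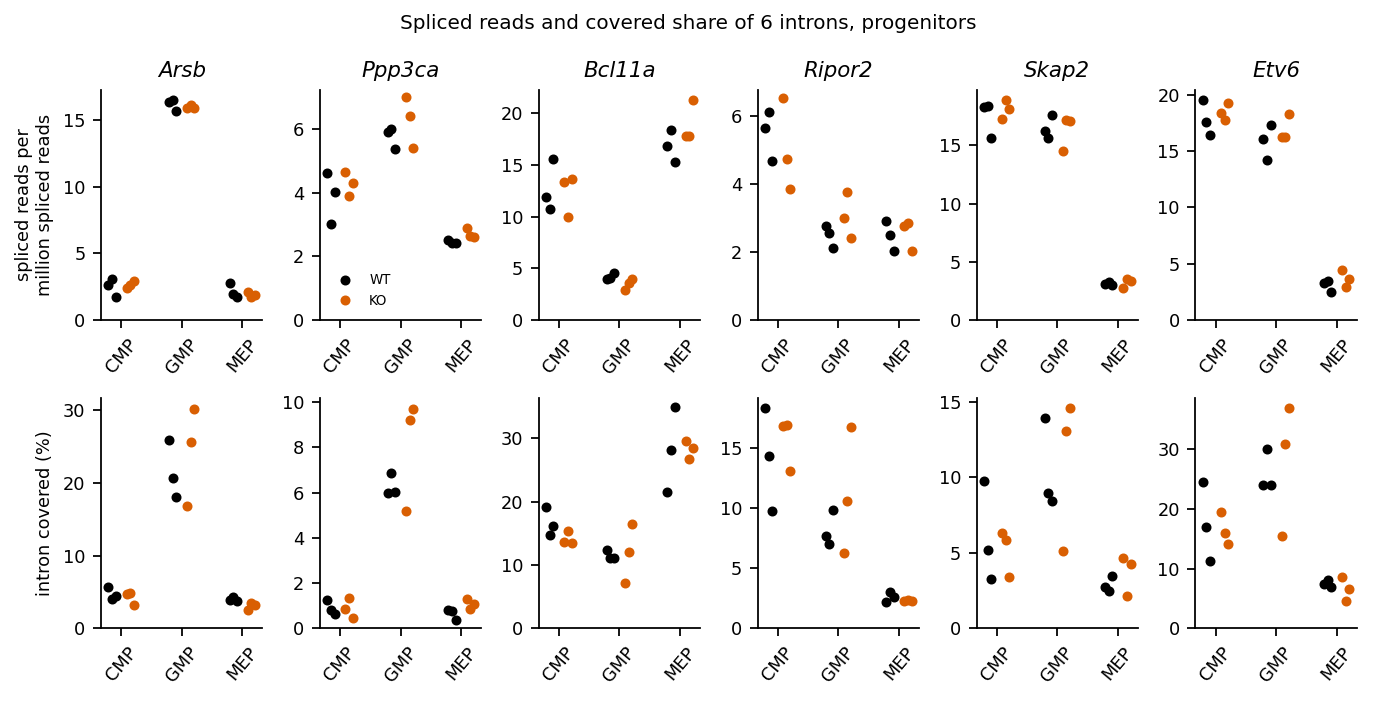
Spliced reads in CPM (upper panels) and covered share in percent (lower panels) of long introns in Arsb, Ppp3ca, Bcl11a, Ripor2, Skap2 and Etv6 in each CMP, GMP and MEP library, WT in black and KO in orange. KO and WT points overlap in each cell type, while Arsb and Ppp3ca are highest in GMP and Skap2 and Etv6 lowest in MEP.

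Host genes were also grouped by lists. Of 47 transcription factors and regulators of blood cells, 5 genes (Bcl11a, Cux1, Etv6, Jarid2 and Tcf12) had 11 long introns kept in progenitors. In MEP against CMP 7 of the 11 were called lower in spliced reads and 1 higher, beside 34.4% called lower among the 352 long introns and 23.5% among all introns. Their median was -0.8 on the log2 scale against -0.02 for all introns. Of 34 signalling and cytoskeleton genes, 5 (Arhgap15, Dock2, Fyn, Msi2 and Ptpre) had 10 kept introns, all 10 lower in MEP than in CMP with a median of -2.23. Dock2 was lower by -2.33 ± 0.21 in its intron of 172971 bases and Msi2 by -0.80 ± 0.16 in its intron of 110000. Introns of 1 gene share its transcripts and are not independent.

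Common fragile site genes replicate late and host some of the longest transcription units. Of 30 in the list, 4 (Exoc4, Gphn, Immp2l and Rad51b) had 10 introns kept in progenitors. Of these 10 introns in 4 genes 7 were called lower in MEP than in CMP, where 34.4% of the 352 long introns and 23.5% of all introns were, and the median was -0.54. Exoc4, of the exocyst complex, changed by -0.73 ± 0.18 in its intron of 137942 bases. The intron of Immp2l had a value of -0.30 ± 0.25 and an adjusted p of 0.355. In none of these 3 lists was a member called in retention in any of the comparisons between progenitor types or of MEF against progenitors.

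MEF and WT progenitors were compared over 294 long introns kept in all 12 WT libraries. The edgeR test called 10 (3.4%) in retention, 5 higher and 5 lower in MEF, in 7 genes, against 8.15% of all 67725 introns tested (1.13% higher and 7.03% lower). At an unadjusted p under 0.05 there were 19 (6.46%), against 18.1% of all. The share called among long introns was thus below the background. Leaving out WT mouse 1, or any of the 3 WT MEF libraries, left 6 calls.

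The largest rise was in Filip1l, which interacts with filamin A. In WT MEF the 3′ boundary of its last intron had 28, 42 and 31 reads beside 38, 34 and 19 spliced, a retention of 26.9%, 38.2% and 44.9%. In the 9 WT progenitor libraries it had 3 reads in 1 CMP library and 0 in the other 8, beside 173 to 543 spliced reads. The log2 ratio rose by 9.19 ± 0.62 (SE, n = 3 and 9) with an adjusted p of 4.22e-11 in edgeR, and the junction's spliced reads changed by -2.73 ± 0.23. The intron lies inside a 283122-base intron of Cmss1 on the opposite strand, and the strand used in counting is not given in the sources used here.

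Copg2 and Foxo3 rose as well, each at a single boundary. Copg2, a coat protein of COPI vesicles, had 47, 58 and 29 reads at the 3′ boundary in WT MEF beside 120, 220 and 140 spliced (16.4%, 11.6% and 9.39%). In WT progenitors it had 0 to 18 reads and a retention of at most 1.84%, and the change was 4.36 ± 0.64 with an adjusted p of 3.44e-08 in edgeR. Foxo3, a forkhead transcription factor, had 31, 47 and 35 reads at the 5′ boundary and 0 at the 3′ in WT MEF (9.04%, 8.01% and 8.56%). Its retention in WT progenitors was at most 1.16%, and the change was 4.91 ± 0.95 with an adjusted p of 4.49e-06. In all 3 genes the MEF and progenitor values did not overlap, and the call held in all 8 alternatives.

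The other calls rested on few reads. In Znrf1, a ubiquitin ligase, 3 overlapping introns were lower in MEF. The one at chr8:111538467-111609292 had 0 boundary reads in WT MEF and 1 to 23 at the 3′ boundary in WT progenitors, a change of -3.22 ± 0.56 with an adjusted p of 0.0161 in edgeR, and its call was lost without any of the 3 WT MEF libraries. Iqgap2, a scaffold protein, had 8 boundary reads in 1 WT MEF library and 0 in the other 2. Its call held in 3 of 8 alternatives and was lost in 5. One loss was without WT MEF 4, where the change went from 3.25 to 1.61. Nt5dc1 had 1, 5 and 1 boundary reads, and its call also held in 3 of 8 alternatives. The 5 losses included those without WT MEF 5, without WT MEF 6 and without WT mouse 1 or 2. The remaining calls were both Mrtfa forms, lower in MEF by -6.69 ± 0.69 for the shorter, with 2.27 ± 0.18 more spliced reads on the log2 scale.

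**Figure D5:**
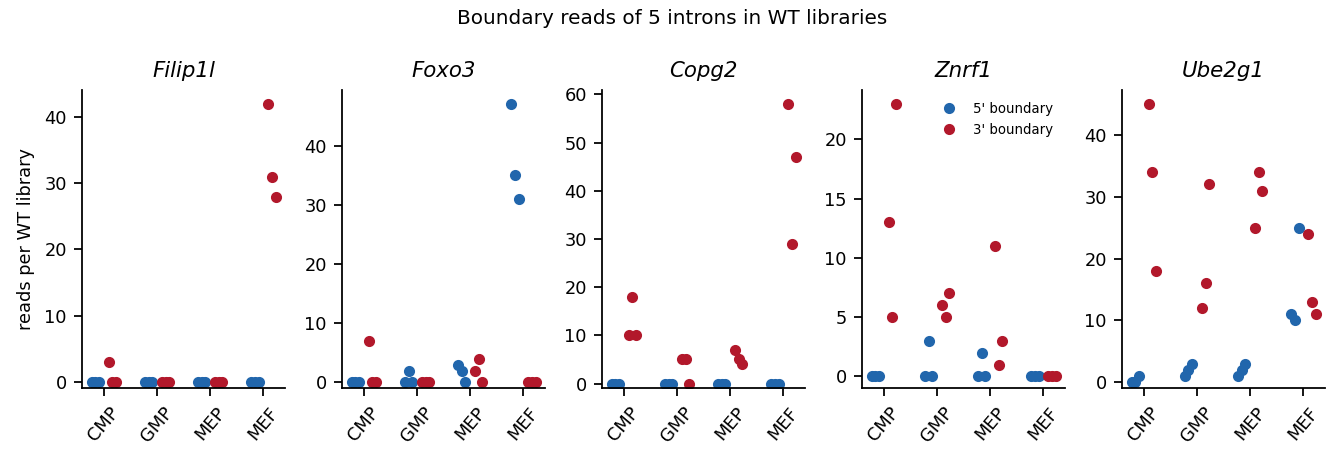
Reads at the 5′ and the 3′ boundary of long introns in Filip1l, Foxo3, Copg2, Znrf1 and Ube2g1 in each WT library of CMP, GMP, MEP and MEF. Filip1l and Copg2 have MEF reads at the 3′ boundary, Foxo3 has 31 to 47 MEF reads at the 5′ boundary and 0 at the 3′, and Znrf1 has 0 in MEF.

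The balance of the ends was tested in 53 long introns and differed in 1, higher in MEF, against 0.24% of all 35062 introns tested (0.168% higher), with 5 at an unadjusted p under 0.05. Ube2g1, a ubiquitin-conjugating enzyme, had 0 to 3 reads at the 5′ and 12 to 45 at the 3′ boundary of its first intron in WT progenitors. In WT MEF it had 25, 11 and 10 at the 5′ and 11, 24 and 13 at the 3′ boundary. The 5′ counts of MEF lay above all 5′ counts of progenitors, and the change in the log2 ratio of 5′ to 3′ reads was 3.93 ± 0.68 with an adjusted p of 0.0185 in edgeR. The call was lost when any of the WT MEF libraries, WT mouse 1 or WT mouse 2 was left out, with changes of 3.3 to 4.42. In KO MEF the 5′ counts were 16, 16 and 19 and the 3′ counts of the same libraries 13, 10 and 6, so that all 3 had more reads at the 5′ boundary.

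The covered share differed between MEF and progenitors in 65 of 294 (22.1%), 18 higher and 47 lower, in 56 genes, against 17.1% of all introns (5.02% higher and 12.1% lower). Without WT mouse 2 the count was 25, and without WT MEF 4, 5 or 6 it was 33, 38 or 36. Nxn, the redox protein nucleoredoxin, was covered over 11.1%, 8% and 6.23% of 120109 bases in MEF and over 0.684% to 3.14% in progenitors (adjusted p 0.000642 in limma). Its spliced reads were 1105, 1468 and 930 in MEF and 63 to 341 in progenitors. St3gal4, a sialyltransferase, was covered over 2.15%, 2.44% and 1.56% in MEF and 9.05% to 19% in progenitors (adjusted p 0.00077 in limma), although its spliced reads were 222, 243 and 177 in MEF and 99 to 319 in progenitors. An annotated exon reaches over its 3′ boundary, as printed above.

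Spliced reads differed in 205 of 294 (69.7%), 117 higher and 88 lower in MEF, in 141 genes, against 71.7% of all introns (36.3% higher and 35.4% lower). Nxn rose by 3.63 ± 0.10 on the log2 scale with an adjusted p of 6.96e-16 in edgeR. Ski, a repressor of transforming growth factor signalling, rose by 2.93 ± 0.16 and Mbnl2, a splicing regulator, by 2.48 ± 0.11. Pola1, the catalytic subunit of DNA polymerase alpha, fell by 2.12 on the log2 scale (SE 0.15), Msra, a methionine sulfoxide reductase, by 2.06 (SE 0.16) and the Cux1 intron chr5:136408028-136485740 by 1.77 (SE 0.12). Of the 6 fragile site introns tested 4 were higher and 0 lower in MEF, and of the 9 in blood transcription factors 2 were higher and 7 lower.

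Loss of Zrsr2 did not move any long intron past the threshold. For retention the edgeR test called 0 of 352 in CMP, GMP and MEP, against backgrounds of 0.00267%, 0.00133% and 0.004% of all introns. At an unadjusted p under 0.05, CMP had 14 long introns (3.98%) where all introns had 3.92%. GMP had 9 (2.56%) where all had 1.38%, and MEP had 11 (3.12%) where all had 2.02%. Among fibroblasts 0 of 785 were called, with 14 (1.78%) at an unadjusted p under 0.05 against 2.07% of all introns and a background of 0 calls. A test that misses the threshold does not show that the genotypes were alike, and so few introns were called anywhere that a count of 0 is near the background.

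Directions between genotypes were mixed. In CMP 216 long introns had a higher and 136 a lower log2 ratio of boundary to spliced reads in KO, with a median of 0.31 against 0.17 for all introns. In GMP it was 135 higher and 217 lower, with a median of -0.25 against -0.14. In MEP the median was -0.05 against 0.01, and in MEF 0.06 against -0.02. The direction of the members followed that of all introns in CMP and GMP.

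Libraries of KO and WT overlapped in most of the single introns compared here, and none was called. Retention of the Adk intron was 2.52% ± 0.731 (SD, n = 3) in WT CMP and 2.16% ± 0.691 in KO CMP, 2.98% ± 1.09 and 2.11% ± 0.838 in GMP, and 2.72% ± 0.617 and 2.6% ± 0.355 in MEP. Suclg2 stood at 2.05% ± 1.06 and 2.28% ± 0.581 in CMP, and Spop at 3.16% ± 0.289 and 3.2% ± 0.807 in MEP. Bcl11a had 5.04% ± 2.62 in WT GMP and 8.89% ± 0.772 in KO GMP, where the libraries did not overlap, and 6.62% ± 1.13 and 6.04% ± 1.27 in MEP. The Vti1a intron of 77169 bases had 8.53% ± 2.55 in WT CMP and 5.22% ± 0.374 in KO CMP, again without overlap, and 8.89% ± 0.316 and 8.47% ± 1.18 in GMP.

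Pooled over the 276 long introns with no annotated exon over an end, retention was 0.957% ± 0.0722 (SD, n = 3) in WT CMP and 1.01% ± 0.0195 in KO CMP. It was 0.94% ± 0.0186 and 0.965% ± 0.0652 in GMP, and 0.935% ± 0.0473 and 0.942% ± 0.0656 in MEP. In MEF, over 605 such introns, it was 0.86% ± 0.057 in WT and 0.878% ± 0.0117 in KO. In each pair the difference was smaller than the larger SD. Of these boundary reads 58.0% to 74.3% (median 68%) lay at the 3′ end in progenitors, against 56.3% to 58.5% (57.2%) in the other introns. In MEF it was 53.7% to 60.8% (57%) against 59.1% to 60% (59.5%). For such introns of Lin-Kit+ cells it was 52.5% to 72.4% (61.8%) against 58.8% to 61.4% (59.6%). A higher 3′ share of long introns was thus not seen in MEF.

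The other measures of the genotype comparisons gave no call among long introns either. The covered share had 0 of 352 in the 3 progenitor types (backgrounds 0.0107%, 0.0107% and 0.0133%) and 0 of 785 in MEF (0.0804%) in limma, with 1, 8, 0 and 24 at an unadjusted p under 0.05. Spliced reads had 0 called by edgeR, with 25 in CMP (7.1%, against 8.07% of all), 6 in GMP, 12 in MEP and 25 of 782 in MEF, and backgrounds of 0.00533% in CMP and 0 elsewhere. The balance of the ends had 0 of 71 in progenitors and 0 of 114 in MEF in edgeR, with 0 calls among all introns. In MEF 2 long introns had an unadjusted p under 0.05 in this test. As between cell types, an end with few or 0 reads left the test little to compare.

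In Lin-Kit+ cells the 264 long introns were compared between genotypes under the control hairpin and between the Zrsr1 hairpins (the mean of sh1 and sh10) and the control in each genotype. In retention the edgeR test called 0 of 264 in all 3 comparisons, with 0, 0 and 3 at an unadjusted p under 0.05, and it called 0 of all 59228 introns. The medians were 0.28 for KO against WT, 0.24 for hairpins in WT and 0.10 for hairpins in KO, against 0.03, 0.07 and 0.04 for all introns. Mrtfa had a retention of 63.4% and 52.5% with the control hairpin in WT cells and 71.2%, 74.1%, 71.5% and 63.6% with sh1 and sh10. In KO cells it had 68.2% and 77.4% with the control and 65.4%, 63.1%, 59.8% and 69.6% with sh1 and sh10, so the groups overlapped there.

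Spliced reads under the hairpins depended on the experiment. Without a block edgeR called 0 of 264 in both genotypes, with 19 (7.2%) in WT and 25 (9.47%) in KO cells at an unadjusted p under 0.05, against 6.81% and 7.18% of all introns. With the experiment as a block it called 26 in WT (9.85%, against 10.7% of all introns) and 27 in KO cells (10.2%, against 10.9%), near the background. DESeq2 without a block called 2 (0.758%, against 1.8%) and 4 (1.52%, against 1.69%). Cell-type markers moved with the hairpins. The summed level of 8 GMP markers was 6260 to 7240 CPM with the control and 3550 to 5330 with sh1 or sh10 in WT cells, and 5710 to 7270 and 2240 to 4980 in KO cells. That of 6 mature neutrophil markers was 1560 to 2500 CPM with the control, 1580 to 2220 with sh1 and 4130 to 13600 with sh10 in WT cells, and 1120 to 3090, 1840 to 3480 and 2980 to 9290 in KO cells. That of 6 macrophage markers was 395 to 990 CPM with the control and 814 to 2280 with sh1 or sh10 in WT cells, and 498 to 928 and 1120 to 2350 in KO cells. None of the 8 GMP, 6 neutrophil or 6 macrophage markers was at 0 in these groups, and their part in the spliced reads was not tested. The covered share and the balance of the ends had 0 calls in all 3 comparisons. Backgrounds were 0.0338%, 0.027% and 0.0135% for the covered share and 0 for the ends. At an unadjusted p under 0.05 there were 0 for the covered share in limma and 1 for the ends (hairpins in WT) in edgeR. An end with few or 0 reads left the test of the ends little to compare.

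The 2 experiments differed under every hairpin, in long introns and in the others. The median covered share was 2.06% to 4.61% in the 6 libraries of experiment 1 and 1.02% to 1.52% in those of experiment 2, with no overlap. Retention pooled over all 264 was 1.65% to 2.03% in experiment 1 and 1.21% to 1.48% in experiment 2. The share of long introns without a boundary read was 35.2% to 47.3% and 54.5% to 65.5%. The other introns differed in the same direction, with a median covered share of 40.6% to 68.7% in experiment 1 and 7.56% to 18.3% in experiment 2, a pooled retention of 2.05% to 2.6% and 1.51% to 1.69%, and 16.8% to 24.7% and 35.5% to 46.2% without a boundary read. Both experiments hold every group, so the experiment is not confounded with genotype or hairpin.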

How the data were processed

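Polyadenylated RNA of 36 libraries was measured. The deposited tables list the same 219945 introns for every library with, per the file headers, counts at both exon-intron boundaries, a count of spliced reads, the covered fraction of the intron and a percent value. That percent was recomputed from the counts with a largest difference of 2.8e-14. Coordinates follow mm10, a build named in the submitters' processing notes. Which aligner and counter were run, and whether counting used strand, was not given in the sources used here. Reads of genes that overlap, antisense ones included, therefore cannot be told apart, and genes with near-identical copies are uncertain.

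Groups followed the labels. All 219945 introns matched GENCODE M21, with more than 1 host gene for 1769 introns and for 6 long ones. Introns needed 50 reads at the ends plus spliced in every library of a set. Retention (boundary against spliced reads) and the balance of the ends (5′ against 3′ reads, for a mean of 10 or more boundary reads) were tested with diffSpliceDGE in edgeR 4.0.16, covered fractions with limma 3.58.1 after the arcsine of the square root, and spliced reads with edgeR's quasi-likelihood test and TMM, in R 4.3.3. Each fit ran over all introns, with Benjamini-Hochberg adjustment and a threshold of 0.05, and 1 fit each for the progenitors, MEF, Lin-Kit+ cells and the 12 WT libraries. Sizes of ratio effects are limma differences of log2 ratios with 0.5 added to both counts. DESeq2 1.42.0, limma on log2 ratios, untransformed fractions, no minimum on reads, replicate blocks and leaving out each mouse or library were the alternatives. The fits were tested on simulated data. For the ratios, large changes were planted only in introns with many reads at both boundaries. The simulation therefore does not show what the fits can find in long introns with few boundary reads. CPM here are spliced reads scaled to the library's total of spliced reads.

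CMP, GMP and MEP of 1 number and genotype come from the same mouse, so these are paired (correlations of deviations -0.251 to 0.215 over 18 pairs). In Lin-Kit+ cells the labels name the shared experiment, and same-experiment libraries deviated together (0.68 to 0.775 over 30 pairs). Long introns and host lists were chosen with earlier results of these data known. Named introns are the up to 5 per direction with the smallest p among those called, the 10 longest, the 10 most spliced, the 10 with the highest retention in WT progenitors, up to 10 per direction with the largest end imbalance, and up to 6 per host list.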

Additional observations from a re-analysis of the deposited data

How the results depend on the processing

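Counts of long introns called are given for each alternative that moved them by more than 1.5 times. With no minimum on reads 2597 long introns were tested in progenitors, 3376 for MEF against progenitors, 3399 in MEF and 2497 in Lin-Kit+ cells (2510, 3272 and 2406 for spliced reads in the first, second and last, and 1970 for the ends in MEF against progenitors). Retention calls were then 18 for MEF against progenitors (0.533%, against 2.17% of all introns), 4 for MEP against GMP (0.154%, against 0.113%) and 1 for KO against WT in GMP, and end calls were 2 for MEF (0.102%, against 0.0593%). The covered share then had 47 calls for GMP against CMP (1.81%, against 0.775%), 186 for MEP against CMP (7.16%, against 2.88%), 310 for MEP against GMP (11.9%, against 4.73%), 1487 for MEF against progenitors (44%, against 24.2%), 1 for KO CMP, 9 for KO MEF, 4 for KO Lin-Kit+, 9 for hairpins in WT and 2 in KO. Spliced reads had 289, 608, 591 and 2066 in the same order of cell types (11.5%, 24.2%, 23.5% and 63.1%, against 13.3%, 29.5%, 29% and 56.5%), 3, 2 and 5 for KO CMP, GMP and MEP, 1 for KO Lin-Kit+, and 1 for hairpins in WT and 1 in KO. Limma on log2 ratios gave 23 retention calls for MEF and 5 for MEP against CMP, and 4, 2 and 2 end calls for MEF, MEP against CMP and MEP against GMP. Untransformed fractions gave 1 for GMP against CMP and 8 for MEP against GMP. DESeq2 gave 2 spliced calls for hairpins in WT and 4 in KO. The causes were not tested apart from the number of introns tested. Counts given here without the share of all introns beside them cannot be read as a result about long introns.

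The mouse block left 0, 0 and 5 covered-share calls for GMP against CMP, MEP against CMP and MEP against GMP, and the experiment block gave 26 and 27 spliced calls for hairpins in WT and KO. The blocks changed no other count by more than 1.5 times. KO and WT mice or embryos of 1 number are not paired by the labels (correlations -0.189 to 0.336 in progenitors and -0.253 to 0.572 in MEF). No paired analysis was possible because the numbers of MEF and progenitor libraries do not overlap for MEF against progenitors.

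Leaving out 1 mouse or library gave 0 to 2, 0 to 4, 3 to 16 and 25 to 52 covered-share calls for GMP against CMP, MEP against CMP, MEP against GMP and MEF against progenitors. It gave 49 to 85, 121 to 163, 125 to 163 and 185 to 204 spliced calls in that order, 6 to 10 retention calls and 0 to 1 end calls for MEF, and 2 retention calls for each comparison of MEP. All counts for genotypes and hairpins were 0 to 0 in these. No named call reversed in these alternatives. Over the named calls, 17 values lost the threshold and 214 kept it under other settings, and 55 lost and 383 kept it when a mouse or library was left out. Retention of these introns rests on few boundary reads, at a median of 2.03 per long intron and library in progenitors.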

Other observations

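Of the 785 long introns kept in MEF, 512 (65.2%) did not pass the minimum in progenitors, against 25324 of the 89545 introns of any length kept in MEF (28.3%). The minimum had to be met in all 18 progenitor libraries and in all 6 of MEF. Among 50 fibroblast genes of adhesion, matrix and guidance, 29 had 55 long introns kept in MEF and 0 in progenitors. In Cald1, which encodes the actin-binding protein caldesmon, the first intron (63462 bases) had 80, 56 and 38 reads at the 5′ boundary in WT MEF and 52, 85 and 73 in KO MEF, with 0 at the 3′ boundary in all 6 libraries and 1506 to 2585 spliced reads. Cald1 intron 3 of 14 (55714 bases) had at most 1 read at either boundary beside 1350 to 2406 spliced reads, although an exon of another transcript lies over its 5′ boundary. Cdh11, a mesenchymal cadherin, had the opposite pattern in its first intron (64365 bases), with 70, 89 and 51 reads at the 3′ boundary in WT, 53, 88 and 49 in KO and 0 at the 5′ boundary in all 6.

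Gpc3, a glypican on the X chromosome, showed both patterns in 1 gene. Intron 6 of 7 (50725 bases) had 50 to 96 reads at the 3′ and at most 1 at the 5′ boundary, while intron 2 of 7 (153662 bases) had 2 to 10 at the 5′ and at most 1 at the 3′. Slit3, a guidance ligand, had 1059 to 1826 spliced reads over an intron of 273314 bases, at most 1 boundary read in a library and a mean of 25427 covered bases. Of the 10 genes in which recursive splicing of long introns has been described, Cadm1 and Ncam1 had 3 introns kept in MEF and none of the 10 had any in progenitors. The 257465-base Cadm1 intron had 55 to 112 spliced reads and at most 1 boundary read, and the 228777-base Ncam1 intron had 7 to 15 reads at the 3′ and 0 to 2 at the 5′ boundary.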
